A study of Homo sapiens with 12 samples.

Results

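CXCL12, CXCR4 and ACKR3, a chemokine and its receptors, were followed across human motor neuron cultures exposed to the organochlorine pesticide cis-chlordane. They are 3 of the 28278 genes in the deposited count table, and the set was chosen by the strong fall of CXCR4 in treated against control GFP-positive cells. The values of that contrast are therefore given as a description with no test. The cells were differentiated from the WA09-Islet1-GFP line of human embryonic stem cells, in which GFP reports Islet1, a transcription factor of postmitotic motor neurons. The cultures received cis-chlordane, at 10 µM by the labels, or the DMSO vehicle for 16 h, and were then sorted by GFP. This gave 4 groups of 3 RNA-seq libraries: control GFP-positive, treated GFP-positive, control GFP-negative and treated GFP-negative. All the cells share a single reporter line, the controls carry DMSO, and the GFP-negative fraction holds whatever did not express the reporter. The methods text of the study gives a different dose from the labels, so the dose is uncertain. The replicates are labelled as biological, which the study defines as separate thaws of stored cells, so p-values measure the spread between thaws. Which differentiation each thaw came from was not used here.

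CXCL12 is a secreted chemokine that acts on cells through CXCR4, a receptor coupled to inhibitory G proteins. ACKR3 binds the same ligand but signals through arrestin rather than G proteins, and it takes CXCL12 up and clears it from the surroundings. In the embryonic spinal cord CXCL12 comes largely from the tissue around the neural tube, and CXCR4 on young motor neurons steers their axons towards the ventral exit. The response of a cell to CXCL12 thus depends on both receptors.

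Reference sequence just upstream of a gene start shows the setting in which transcription begins, and it is printed here for the ligand and for CXCR4, the gene that chose the set. The promoter table matched 2 of the 3 genes, CXCL12 and CXCR4, and not ACKR3. By the GENCODE 44 annotation of hg38, CXCL12 lies at chr10:44370165-44386493 on the minus strand with 6143 exon bases, CXCR4 at chr2:136114349-136119177 on the minus strand with 2902, and ACKR3 at chr2:236567787-236582354 on the plus strand with 2070. No other annotated gene overlaps them. The lines below give the 250 bases before the start in the RefSeq promoters of GRCh38.p14, 5′ to 3′ on the strand of the gene, at chr10:44385098-44385347 for CXCL12 and chr2:136118150-136118399 for CXCR4. Capitals mark GC boxes (GGGCGG or its complement), the core motif of the factor NRF1, and TATA boxes (TATAAA).
CXCL12: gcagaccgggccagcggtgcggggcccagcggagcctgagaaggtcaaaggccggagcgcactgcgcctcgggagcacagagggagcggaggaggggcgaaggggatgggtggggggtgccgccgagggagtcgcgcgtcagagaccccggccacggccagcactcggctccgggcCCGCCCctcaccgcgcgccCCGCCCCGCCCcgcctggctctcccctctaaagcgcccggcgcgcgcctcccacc
CXCR4: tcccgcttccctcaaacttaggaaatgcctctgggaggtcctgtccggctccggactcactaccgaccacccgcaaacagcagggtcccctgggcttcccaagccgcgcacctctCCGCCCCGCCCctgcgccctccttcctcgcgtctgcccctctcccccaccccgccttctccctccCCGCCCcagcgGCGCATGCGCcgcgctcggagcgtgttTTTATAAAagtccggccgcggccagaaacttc
Both windows hold 3 GC boxes, a motif present in 42.3% of the 27305 promoters of the same length, and in each window 2 of the boxes share a base. The CXCR4 window also holds an NRF1 core, found in 1.13% of promoters, and 2 overlapping TATA matches, a motif found in 11.1%. The CXCL12 window holds neither. GC content was 78% for CXCL12 and 68% for CXCR4, against a median of 58%. These are matches of letters only, on either strand. Both windows lie inside the GENCODE spans, which begin further upstream.

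Libraries held between 23414935 and 38347050 counts. The sort was read from ISL1, which the reporter follows: it averaged 65.7 ± 3.12 CPM (library-scaled counts, TMM-adjusted CPM, mean ± SD, n = 3) in control GFP-positive cells, 12.0 ± 3.71 in treated GFP-positive cells, 2.57 ± 0.203 in control GFP-negative cells and 0.548 ± 0.152 in treated GFP-negative cells. The summed level of 8 motor neuron markers ran from 1721 to 1924 CPM in control GFP-positive libraries and from 299.5 to 343 in control GFP-negative libraries, although LHX3, a motor neuron factor on that list, was lower in the GFP-positive fraction. After treatment the sums ran from 513 to 702 and from 109.8 to 144. In bulk RNA, fewer cells of a type and less RNA per cell cannot be told apart. Replicate 3 of control GFP-negative stood apart: its 8 blood and microglia markers summed to 112 CPM, against 13.3 and 12.2 in replicates 1 and 2. CXCR4 is also a gene of blood cells, so the fitted differences of CXCR4 and ACKR3 that use this library are given below with and without it. Group levels and ratios include it.

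CXCR4 was, per length of exon, the most abundant member in control GFP-positive cells, and it was low in every treated library. In control GFP-positive cells it measured 54.0, 56.0 and 48.2 CPM in replicates 1 to 3, and in treated GFP-positive cells 2.34, 5.18 and 3.05 CPM. The control GFP-negative libraries gave 41.0, 38.9 and 45.9 CPM and the treated ones 4.66, 10.7 and 6.02 CPM. Controls and treated libraries did not overlap in either fraction. The order of the group means was control GFP-positive (52.7 ± 4.02 CPM, SD, n = 3), control GFP-negative (42.0 ± 3.61), treated GFP-negative (7.13 ± 3.18) and treated GFP-positive (3.52 ± 1.48), and only the last neighbours overlapped in range. The highest control GFP-negative value, 45.9 CPM, belonged to the library with the blood markers. In control GFP-positive cells, where CXCR4 was highest, the 8 blood and microglia markers summed to 35.0 to 46.3 CPM. RUNX1, a transcription factor on that list, averaged 37.7 ± 6.26 CPM there and made up most of the sum. In the same control GFP-positive libraries PTPRC, AIF1, CSF1R, SPI1 and TYROBP were each at or under 3 counts. The part of these markers in the CXCR4 values was not tested.

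ACKR3 had the opposite distribution between the sort fractions. It measured 36.5, 41.0 and 36.0 CPM in control GFP-negative libraries against 7.05, 9.12 and 7.93 CPM in control GFP-positive libraries. After treatment it measured 16.3, 21.7 and 15.1 CPM in GFP-negative cells and 2.70, 3.72 and 2.57 CPM in GFP-positive cells. None of the 4 groups overlapped another, and the means descended from control GFP-negative (37.9 ± 2.74 CPM) through treated GFP-negative (17.7 ± 3.50) and control GFP-positive (8.03 ± 1.04) to treated GFP-positive (3.00 ± 0.631).

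CXCL12 itself was scarce in all 12 libraries, with 33 to 89 counts. It measured 3.06, 2.58 and 1.95 CPM in control GFP-positive cells, and 1.68, 1.46 and 2.17 CPM in treated GFP-positive cells. Control GFP-negative libraries gave 2.10, 1.38 and 1.40 CPM and treated GFP-negative libraries 1.42, 2.18 and 1.98 CPM. Every neighbouring pair of groups overlapped. Its smallest count, 33, has an exact 95% Poisson interval of 22.7 to 46.3, which covers counting error only.

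**Figure D1:**
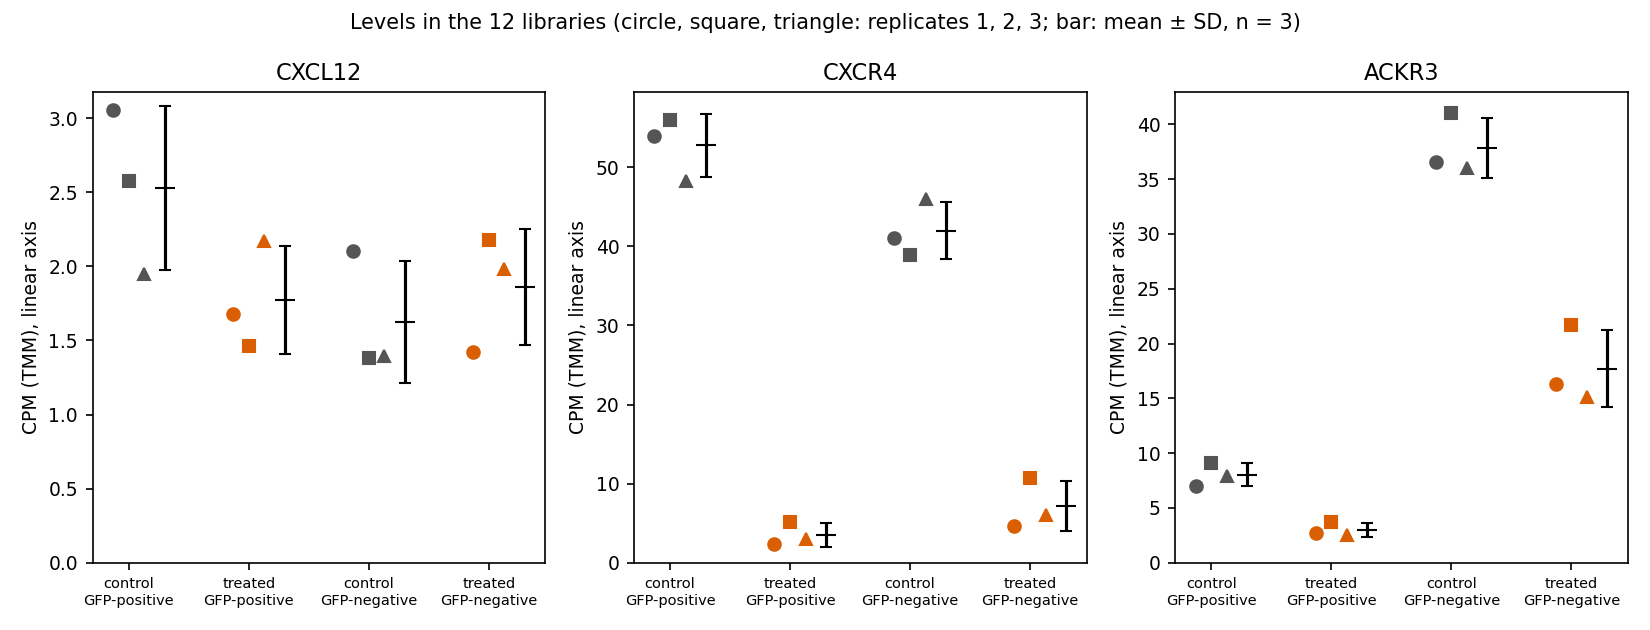
CPM of CXCL12, CXCR4 and ACKR3 (vertical axes, linear, a separate scale for each gene) in the 12 libraries by group, with symbols for replicates 1, 2 and 3 and bars for the mean ± SD (n = 3). CXCR4 lies between 38.9 and 56.0 CPM in the controls and at or below 10.7 CPM after treatment, while ACKR3 is higher in the GFP-negative fraction of either treatment.

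The effect of cis-chlordane in GFP-negative cells was tested, because the rule that chose the genes did not use that contrast. The test is still not independent of the choice. Same-numbered sort fractions were taken as parts of a culture, and the members were chosen with earlier results of these data known. CXCR4 was 5.95-fold lower after treatment (log2 fold change -2.57, SE 0.30, 95% interval -3.23 to -1.91, adjusted p = 2.7e-04, edgeR quasi-likelihood test with Benjamini-Hochberg adjustment over 15513 genes). ACKR3 was 2.17-fold lower (-1.12, SE 0.19, interval -1.55 to -0.68, adjusted p = 0.0023 by edgeR). For CXCL12 the difference was 0.18 (SE 0.34, interval -0.60 to 0.95, adjusted p = 0.73 by edgeR), which leaves room for changes of either sign. Thus 2 of 3 members were called lower, meaning an adjusted p under 0.05 and at least a 2-fold change, where 9.75% of all genes tested were. The ranges of the same 2 members did not overlap, in the direction that 22.6% of genes showed. Ranked from the most negative change, CXCR4 was number 195 and ACKR3 number 1580 of 15513. Without the control library that carried blood markers the log2 changes were -2.50 for CXCR4 and -1.15 for ACKR3.

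In the GFP-positive cells, the contrast that chose the set, the fitted CXCR4 difference was 14.3-fold (log2 fold change -3.83, SE 0.24), number 36 from the most negative of 15333 genes. ACKR3 differed by 2.56-fold (-1.36, SE 0.25) and CXCL12 by -0.44 on the log2 scale (SE 0.32, interval -1.09 to 0.20). There 11.2% of all genes were called lower and 30.6% were lower without overlap; nothing is read from the members against these shares. CXCR4 and ACKR3 both had lower treated than control values in each fraction. For CXCR4 the difference between the treatment effects of the fractions was -1.35 (SE 0.40, interval -2.21 to -0.49), or 0.21 for the SE when the paired cultures were taken as a block. The corresponding values were -0.33 (SE 0.28) for ACKR3 and -0.71 (SE 0.46) for CXCL12. These differences include the contrast that chose CXCR4 and were not tested. Over all genes 2.19% were called in that comparison. Without the library with blood markers the values were -1.42 for CXCR4, -0.29 for ACKR3 and -0.61 for CXCL12. The summed motor neuron markers were lower after treatment in both fractions, with 6 of 8 called lower in GFP-positive and 5 of 8 in GFP-negative cells, and their part in the CXCR4 and ACKR3 values was not tested.

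ACKR3 was called lower in the GFP-positive fraction of both treatments. It was 5.06-fold lower in control GFP-positive than in control GFP-negative cells (log2 fold change -2.34, SE 0.18, adjusted p = 7.1e-06, edgeR quasi-likelihood test), in a comparison in which 15.3% of genes were called lower and 24.1% were lower without overlap. After treatment it was 5.83-fold lower (-2.54, SE 0.24, adjusted p = 3.8e-06 by edgeR), where 13.7% of genes were called lower and 29.6% were lower without overlap. CXCL12 gave 0.53 (SE 0.33, interval -0.21 to 1.27, adjusted p = 0.23 by edgeR) in controls and -0.05 (SE 0.31, interval -0.73 to 0.62, adjusted p = 0.90 by edgeR) after treatment. For CXCR4 the values are descriptive, since its GFP-positive libraries entered the choice. In controls it gave 0.22 (SE 0.15) without overlap of the fractions, where 29.1% of all genes were higher without overlap. After treatment it gave -1.002 (SE 0.35, interval -1.77 to -0.24), and the ranges overlapped. With the paired cultures as a block the treated difference was -0.99 (SE 0.20). Leaving out 1 library gave between -1.41, without replicate 2 of treated GFP-positive, and -0.56, without replicate 2 of treated GFP-negative. Without the control library that carried blood markers the control differences were -2.35 for ACKR3, 0.46 for CXCL12 and 0.32 for CXCR4. Summed markers of other cells were also higher in the control GFP-negative fraction. The 8 mesenchymal markers summed to 761 to 886 CPM in control GFP-negative and 261 to 326 in control GFP-positive libraries. Most of the former was COL1A1 (598 CPM) and COL1A2 (193 CPM), and COL1A2 was not called (-0.16). The 8 neural progenitor markers, of which HES5 was at or under 3 counts everywhere, summed to 2393 to 4001 and 1452 to 1745 CPM. NES made up most of these sums (2632 and 1498 CPM) and was not called (-0.91). By edgeR 4 of 6 tested mesenchymal and 6 of 7 tested progenitor markers were called lower in control GFP-positive cells, against 15.3% of all genes. The part of these markers in the ACKR3 difference was not tested.

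**Figure D2:**
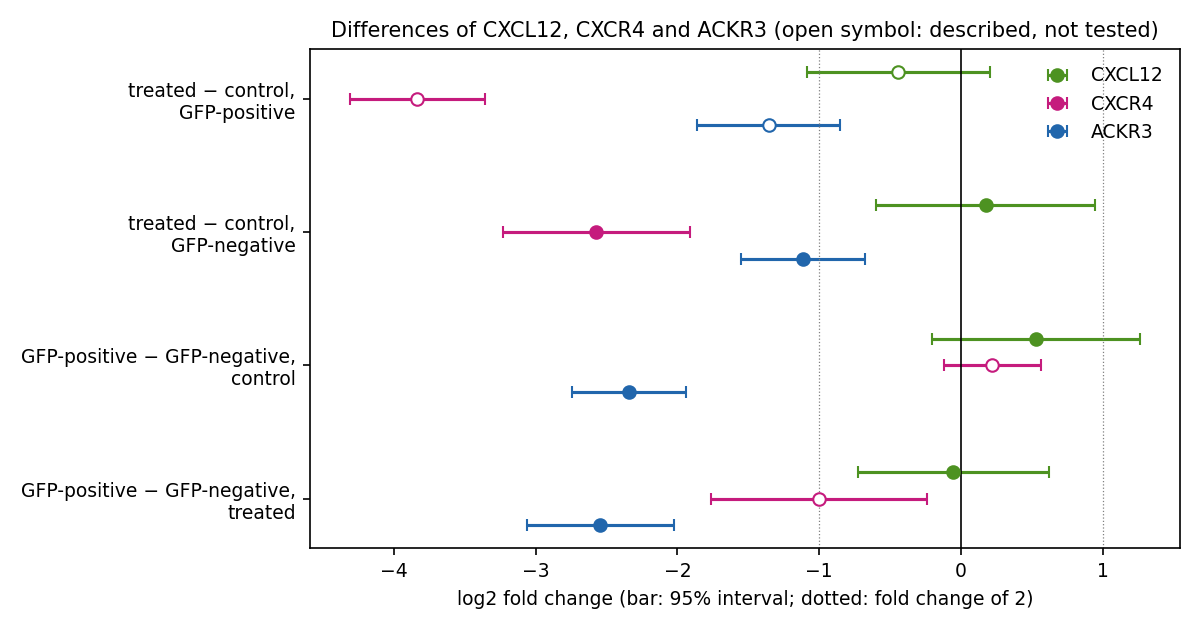
Log2 fold changes (horizontal axis) of the 3 genes in the 4 comparisons, with bars for the 95% interval. Filled symbols were tested and open ones are described only. The CXCR4 interval lies below -1 in both treatment comparisons, and the ACKR3 interval does so in both comparisons of the sort fractions.

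Levels of different genes can be compared per length of exon, taken here as the union of all annotated exons of a gene. The length of the transcripts expressed was not measured. On that scale the control GFP-positive cells held more CXCR4 than ACKR3 transcript (18.2 against 3.88 CPM per kb). Control GFP-negative cells held slightly less CXCR4 than ACKR3 (14.5 against 18.3). In CPM without the length they held more CXCR4 (42.0 against 37.9). The CXCR4 to ACKR3 ratio was 4.34 to 5.46 in control GFP-positive libraries and 0.618 to 0.993 in treated ones. Per kb, every treated GFP-positive library thus held less CXCR4 than ACKR3, and replicate 2 held nearly the same (0.993). In CPM without the length, replicates 2 and 3 held more CXCR4 (5.18 against 3.72 and 3.05 against 2.57). Replicate 1 held less (2.34 against 2.70). In GFP-negative libraries the ratio was 0.677 to 0.909 in controls and 0.204 to 0.352 after treatment. The ratio of treated GFP-positive cells thus overlapped that of control GFP-negative cells, although both receptors were far lower there. CXCL12 stayed between 0.265 and 0.412 CPM per kb in the group means.

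**Figure D3:**
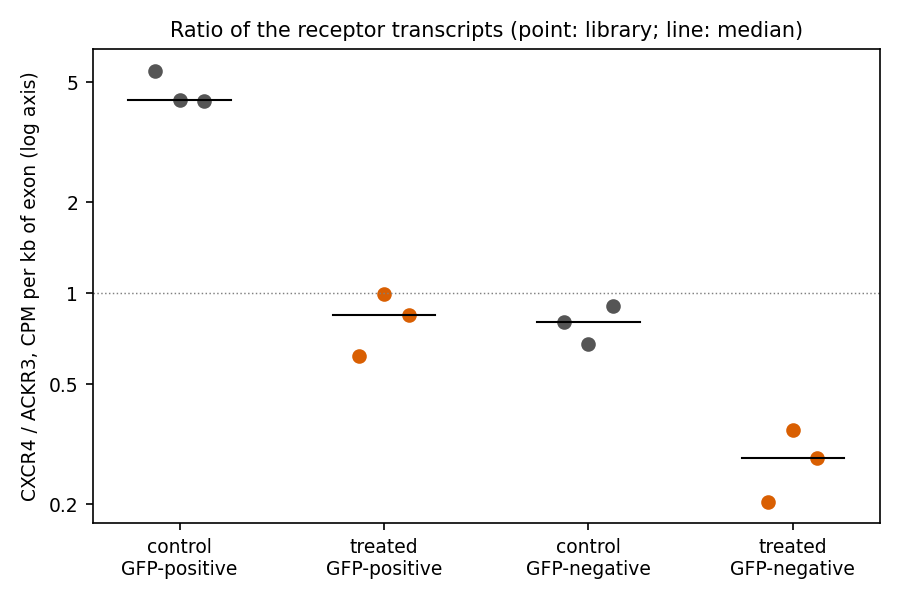
Ratio of CXCR4 to ACKR3 in CPM per kb of exon (vertical log axis) in each library, by group, with a line at the median. The median is 4.38 in control GFP-positive, 0.846 in treated GFP-positive, 0.802 in control GFP-negative and 0.283 in treated GFP-negative libraries.

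Genes that act with CXCL12 and its receptors were read from lists by role, against 12.8% of all genes called higher and 11.2% called lower in treated GFP-positive cells, and 8.59% and 9.75% in treated GFP-negative cells. Among 12 tested genes of other ligands and of ligand handling, 1 rose and 4 fell in treated GFP-positive cells, with a median of -0.73 against 0.03 over all genes, and 1 rose and 3 fell in GFP-negative cells (median -0.07 against -0.01). ADM, encoding adrenomedullin, a peptide that ACKR3 also binds, rose in both fractions (log2 fold change 2.62, SE 0.48 and 1.66, SE 0.34). Its counts in GFP-positive cells were low, at most 9 in a control and 49 in a treated library. The chemokine CXCL14 fell in both fractions, from 1.67 to 0.430 CPM and from 11.6 to 2.35 CPM. MMP2, a protease able to cleave CXCL12, fell by 1.29 in GFP-positive cells, and HSPG2, the heparan sulphate proteoglycan perlecan, fell by 1.36 on the log2 scale in GFP-negative cells. The other named ligands of these receptors also had low counts, at most 70 in a library for MIF and 233 for PENK. MIF, which binds CXCR4 and CD74, gave -1.01 and 0.08. PENK, the precursor of opioid peptides that ACKR3 can bind, gave -0.63 and 0.37, and none of these was called. CXCL11 had 0 counts in every library, and DPP4, which trims CXCL12, was too low to test. The CD74 call in GFP-negative cells rested on the library with blood markers, since the change was -0.36 without it (adjusted p = 0.37 by edgeR).

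Among 21 genes of receptor desensitisation and trafficking, 4 rose and none fell in each fraction by edgeR, and the 4 were the same genes. NEDD4, a ubiquitin ligase of the family that marks receptors for degradation, went from 6.77 ± 1.55 to 79.3 ± 8.58 CPM in GFP-positive cells (log2 fold change 3.62, SE 0.20) and from 11.5 to 62.2 CPM in GFP-negative cells (2.42, SE 0.29). STAM2, which sorts ubiquitinated cargo on endosomes, rose by 1.48 and 1.39, RAB5A of early endosomes by 1.48 and 1.34, and RNF113A, a ubiquitin ligase, by 1.06 and 1.23. The list medians were 0.31 and 0.41. The kinases GRK2 and GRK3 and the arrestins ARRB1 and ARRB2, which act on the activated receptor, were not called in either fraction. Their log2 differences were -0.56, 0.42, -0.48 and 0.08 in GFP-positive cells and -0.26, 0.02, -0.50 and -0.43 in GFP-negative cells. In GFP-positive cells GRK2, GRK3 and ARRB1 were short only of the 2-fold limit (adjusted p = 0.0036, 0.034 and 0.0098 by edgeR). In GFP-negative cells the same held for ARRB1 alone (adjusted p = 0.044 by edgeR).

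Among 39 tested G protein and effector genes 2 fell in GFP-positive cells and none was called in GFP-negative cells by edgeR. The share of all genes called lower was 11.2% and 9.75% in these fractions. GNAI2, an inhibitory alpha subunit through which CXCR4 signals, fell from 201 to 85.7 CPM in GFP-positive cells (-1.16, SE 0.16) and measured -0.91 in GFP-negative cells, short of the 2-fold limit. The related subunits GNAI1 (-0.88 and -0.63) and GNAI3 (0.93 and 0.84) differed in opposite directions and were also short of that limit. The gamma subunit GNG2 fell by 1.08 in GFP-positive cells. Of 12 RGS genes, whose products speed the switching-off of G alpha subunits, 3 fell and none rose in each fraction by edgeR, against the same shares. RGS2 and RGS8 were called in both, at -1.63 and -3.25 in GFP-positive and -1.24 and -1.27 in GFP-negative cells. RGS4 fell in GFP-positive cells (-1.90, SE 0.26) and measured 0.62 (SE 0.24) in GFP-negative cells, where it was not called.

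Of the transcription factors linked to the CXCR4 and CXCL12 genes, LHX4, a LIM factor of motor neurons, fell from 43.1 to 7.66 CPM in GFP-positive and from 33.7 to 9.28 CPM in GFP-negative cells, and ISL1 fell in both. EPAS1, the hypoxia factor HIF-2 alpha, rose in GFP-negative cells from 0.378 to 4.52 CPM. In GFP-positive controls it had at most 2 counts a library, so the treated mean of 0.478 CPM was at least 4.86-fold higher than the level of 3 counts per library. Of 12 and 13 factors tested in the fractions, these were the only ones called, 1 higher and 2 lower in each.

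**Figure D4:**
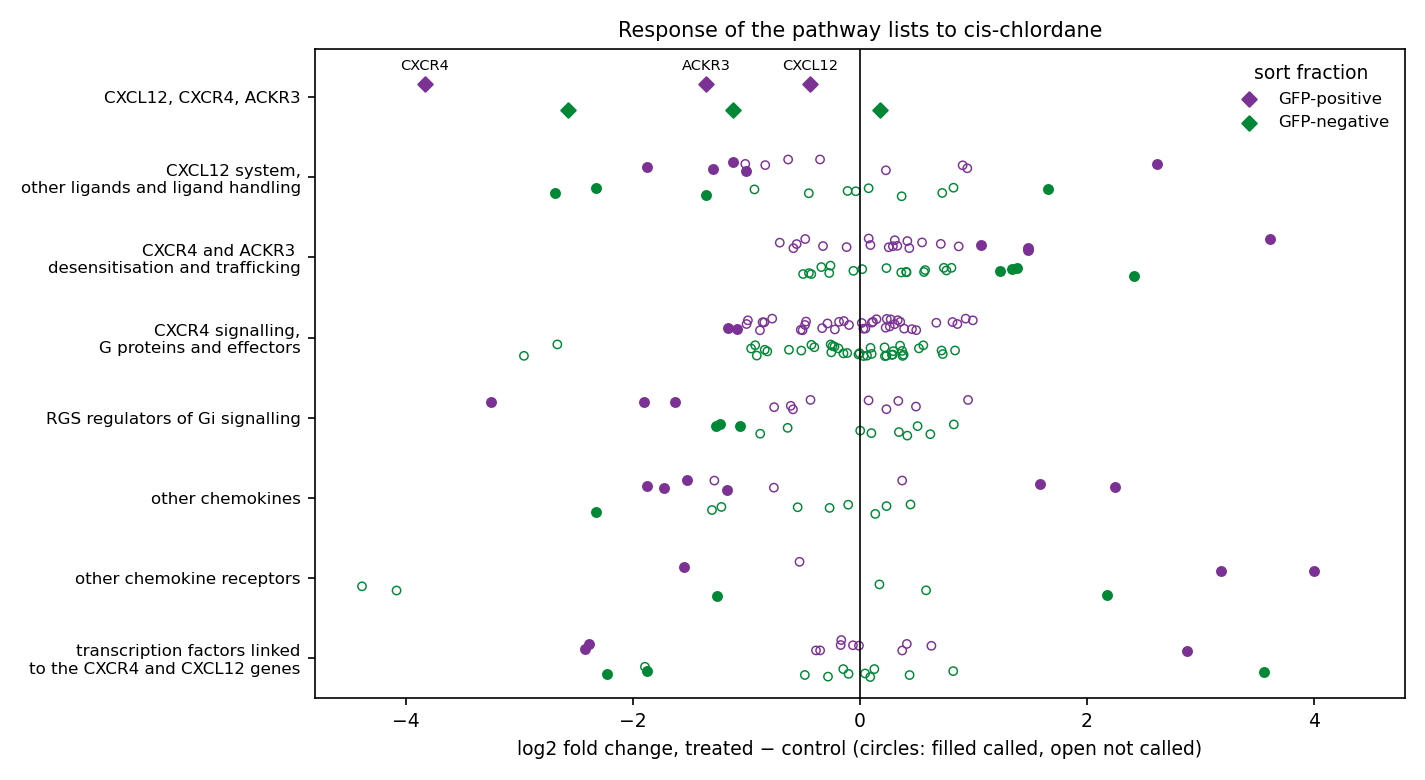
Log2 fold change after cis-chlordane (horizontal axis) of the tested genes of each list (rows), for GFP-positive (purple) and GFP-negative cells (green). Filled circles were called and open ones were not, and diamonds show CXCL12, CXCR4 and ACKR3 whether or not they were tested; NEDD4 is the rightmost of the trafficking genes in both fractions, at 3.62 and 2.42.

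In controls 8 of the 12 ligand and ligand handling genes were lower in the GFP-positive fraction, as ACKR3 was, with a list median of -2.71 against -0.02 over all genes, of which 15.3% were called lower. ADM (-4.26), SDC4 (-3.38), a heparan sulphate proteoglycan, and the protease MMP14 (-2.90) were among the largest of these differences. In the trafficking list ARRB1, GRK3 and GRK4 were higher there and none was lower by edgeR, where 7.47% of all genes were called higher. ARRB1 encodes an arrestin that ACKR3 and CXCR4 can recruit, and averaged 204 CPM in control GFP-positive and 70.3 in control GFP-negative cells. The other arrestin gene of the list, ARRB2, averaged 127 and 126 CPM and was not called (-0.09). After treatment 10 of the 12 ligand genes were lower in the GFP-positive fraction, where 13.7% of all genes were, and ARRB1, GRK3 and GRK4 were again higher, where 10% of all genes were.

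The genes whose profile over the 12 libraries was closest to that of each member were found by the root mean square difference of centred log2 CPM, over 13813 genes. For CXCR4 these were C1QL4 (0.353), BRINP3 (0.379), BTBD17 (0.411), MAB21L2 (0.420) and ASIC4 (0.496), where the median gene was at 1.80. For ACKR3 they were E2F1 (0.179), HSPB6 (0.195), NEK6 (0.202), TTYH2 (0.216) and MCM5 (0.225), with a median of 1.48. For CXCL12, SLC25A4 (0.204) was nearest and the median was 0.600. The CXCL12 profile was nearly flat, and genes with little change lie near it.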

How the data were processed

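RNA-seq counts per gene were deposited for 12 libraries. The authors aligned single-end reads with HISAT2 to hg38 and counted them per gene, without normalization, with featureCounts per the labels, and the strand setting of the counter is not given in the sources used here. Libraries were grouped by their labels. Titles of treated libraries also carry the word untreated, so the group was read from the later word, control or treated. From the deposited counts, CPM values and tests were computed in edgeR 4.0.16 (R 4.3.3): TMM scaling, filterByExpr (minimum count 10, total 15) and the quasi-likelihood test on the groups compared, with Benjamini-Hochberg adjustment over all genes. The interaction used all 12 libraries (16226 genes). Genes were called at an adjusted p under 0.05 when they also changed at least 2-fold, and in the interaction the adjusted p alone. Scripts were tested on simulated data. Alternatives were other scalings and filters, DESeq2 1.42.0, a replicate block and leaving out each library.

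The members and lists were chosen with earlier results of these data known. From each list and comparison up to 4 called genes with the greatest change could be named, besides a set of ligands, kinases, arrestins and G alpha subunits named always. Replicates differed beyond counting noise in every group (chi-square per degree of freedom 22.1 to 109), so no library was counted as a duplicate. Same-numbered sort fractions deviated together (correlations of 0.16 to 0.48 in controls and 0.20 to 0.55 after treatment, 13368 genes), so the numbers were taken to pair fractions of a culture. The pairing is less clear for replicate 1 of treated GFP-positive. It correlated at 0.28 with replicate 2 of treated GFP-negative and at 0.20 with replicate 1. In the treatment comparisons the correlations ran from -0.08 to 0.25, and the samples share only a number. Exon lengths came from GENCODE 44, a different release from the Ensembl annotation that the study names.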

Additional observations from a re-analysis of the deposited data

Results flagged for a closer look

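In 3 of the 113 pathway genes tested (2.65%) the effect of cis-chlordane differed between the sort fractions by the interaction test of edgeR. Over all genes 2.19% were called, so the share in the lists was near the background, and the genes are described singly. Among 46 marker genes of cell types 7 were called. The log2 treatment change was higher in the GFP-positive than in the GFP-negative fraction for OLIG2, PAX6 and SOX1. It was lower there for COL1A2, MNX1, RUNX1 and TIE1. These are differences of treatment effects and not of levels. For RGS4, which encodes a G alpha deactivating protein, the GFP-positive minus GFP-negative difference was -2.61 on the log2 scale (SE 0.41, adjusted p = 0.0043 by edgeR). RGS4 went from 17.6 to 4.48 CPM in GFP-positive cells and from 7.24 to 11.3 CPM in GFP-negative cells. For RGS8, of the same family, the difference was -2.06 (SE 0.41, adjusted p = 0.016 by edgeR), with 11.8 to 1.19 CPM in GFP-positive and 7.36 to 3.09 CPM in GFP-negative cells. For GPC1, the heparan sulphate proteoglycan glypican 1, it was -0.98 (SE 0.20, adjusted p = 0.020 by edgeR), with 435 to 207 CPM and 332 to 312 CPM. RGS8 and GPC1 each lost the call in 3 of 18 alternatives.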

How the results depend on the processing

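Of 280 recomputed values of the members and of the counts of called genes, 262 kept their direction and side of the threshold. This total pools tested values with described ones, among them those of the contrast that chose the set. It is therefore no support for the members. CXCR4 in GFP-negative cells stayed between -2.99 and -2.36 (log2, adjusted p at most 0.0051 by edgeR or DESeq2) and ACKR3 between -1.28 and -1.02 (at most 0.022). The CXCL12 difference between treated fractions turned positive, to 0.12, with library size alone as scaling, and ran from -0.25 to 0.092 when a library was left out. The interaction called 355 genes (157 higher, 198 lower). With the replicate block for paired cultures it called 1264, with DESeq2 796, and without 1 library 141 to 414. With library size alone the split was 266 higher and 84 lower, and for the treated fractions 2230 and 1770 against 1541 and 2117. The interaction value ran from -1.73 to -0.91 for CXCR4 without 1 library, and for ACKR3 from -0.51 to -0.067, or -0.076 with library size alone. The cause was not tested. The replicate block changed no call of a member. Of 617 recomputed values of the list genes named, an alternative chosen after seeing the data, 575 kept their call, 42 lost it and 0 reversed. Among these, CD74 lost it in 6 of 12 in GFP-negative and 6 of 13 in GFP-positive cells, RNF113A in 3 of 13 and GNG2 in 2 in GFP-positive cells, and RGS19 measured -0.84 in GFP-negative cells without replicate 3 of the controls. CXCL12 had the lowest counts of the members, 33 to 89 in a library.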

Other observations

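Other chemokine genes were mostly near or below detection. Of 37 chemokines besides CXCL12, 9 passed the count filter in each treatment comparison. In treated GFP-positive cells CXCL3 and CXCL16 rose, and CCL2, CCL27, CX3CL1 and CXCL14 fell (CCL27 and CX3CL1 are named after their values were seen). Over all genes 12.8% were called higher and 11.2% lower there. CCL2, CCL27 and CXCL3 had few counts, at most 22, 24 and 19 in a GFP-positive library. CX3CL1, a membrane-bound chemokine made by neurons, went from 12.1 to 5.13 CPM there, and from 84.9 to 71.5 CPM in GFP-negative cells, where it was not called. Per kb of exon, XCL1 was the most abundant chemokine in GFP-positive cells (5.04 CPM per kb in controls and 6.22 after treatment), and CX3CL1 in GFP-negative cells (14.3 and 12.0). CXCL12 ranked number 7 of 38 in control GFP-positive and 13 in control GFP-negative cells. The CCL2 call was lost in 6 of 12 alternatives, and its log2 change of -1.73 became -3.30 without replicate 2 and -1.12 without replicate 3 of the treated libraries. CXCL3 measured 2.25, or 3.32 without replicate 1 and 1.66 without replicate 3 of the controls.

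By CPM per kb of exon among 23 chemokine receptors, CXCR4 ranked 1 in control GFP-positive cells, ahead of ACKR1 (16.3), and 5 after treatment. In control GFP-negative cells ACKR3 ranked 1 and CXCR4 2, and after treatment ACKR3 stayed at 1 while CXCR4 ranked 4. ACKR1, an atypical receptor that binds many inflammatory chemokines, fell by 1.55 in GFP-positive and by 1.26 in GFP-negative cells on the log2 scale, the latter call being lost in 3 of 13 alternatives. CCR7, a lymphocyte homing receptor, rose by 3.996 (SE 0.52) in GFP-positive and 2.18 (SE 0.63) in GFP-negative cells, with libraries from 1.35 to 6.12 and from 11.4 to 23.8 CPM after treatment, and the second call was lost in 4 of 13 alternatives. Without replicate 3 of control GFP-negative, the library with blood markers, the CCR7 change in GFP-negative cells was 3.37. In GFP-positive cells it was 5.10 without replicate 3 of the controls and 3.20 without replicate 3 of the treated libraries.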
